A study of Mus musculus with 3 samples.

Results

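RBFOX2 crosslink clusters that lie in unannotated sequence just past the 3′ ends of protein-coding genes are described here. A cluster was taken when its midpoint fell in no annotated gene on either strand and lay 1 to 5000 nt downstream of the 3′ end of a protein-coding gene on the cluster's own strand, in the GENCODE M21 annotation of the mouse genome GRCm38. The rule used position only, and it found 1012 of the 87021 deposited clusters, or 1.16% (Wilson 95% interval 1.09 to 1.24%). They made up 11.5% (10.8 to 12.2%) of the 8807 clusters outside every annotated gene. Clusters 1 to 5000 nt upstream of gene starts, chosen in the same way, served as the contrast and numbered 362. Of the 1012 clusters, 106 (10.5%, 8.73 to 12.5%) also lay before a gene start and are counted in both sets. The intervals of the contrasts below take the sets as separate.

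The clusters come from 3 eiCLIP libraries of primary hepatocytes isolated from C57BL6/J mice, UV-crosslinked at 150 mJ per cm2 and immunoprecipitated with an RBM9 (RBFOX2) antibody. In eiCLIP, reverse transcription stops at the nucleotide crosslinked to the protein, so that the start of a cDNA marks a contact. The labels give 3 livers and 3 cell pellets per sample, while the methods describe independent cultures from pairs of mice. The libraries form a single group and were summed into 1 list before clusters were called, so no cluster has a value per library, no spread between replicates could be computed and no comparison between conditions was possible. Intervals below cover counting error over clusters or genes only. They treat clusters as independent, which neighbouring clusters at 1 gene are not, and they carry no p-values. The cells carried clusters in 6 of 6 hepatocyte marker genes, with 10501 counts in all, from 11 to 8110 per gene. Among the markers of other liver cells, 3 of 4 Kupffer cell, 3 of 4 endothelial, 3 of 4 stellate cell and 3 of 3 cholangiocyte genes held no cluster, and the sums were 15, 12, 150 and 0 counts, with 14 counts in the leukocyte gene Ptprc.

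RBFOX2 is an RNA-binding protein that recognises UGCAUG in RNA and steers alternative splicing, mostly from introns. The 3′ end of an mRNA is made when the nascent transcript is cut downstream of a poly(A) signal, most often AAUAAA, and receives its poly(A) tail. The polymerase runs on past this point before it stops, and many genes have several such points, of which an annotation may hold only the nearer ones. Sequence past an annotated end can therefore appear in RNA as a longer 3′ UTR, as readthrough or as the trailing part of the nascent transcript. A list of crosslink clusters does not tell these apart.

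The annotated ends of 6 of the 10 genes with most clusters past them are shown first, since the distances below are counted from the last base of each run. The runs are the last 30 nt of the annotated transcript, 5′ to 3′ on the strand of the gene, taken from GENCODE M21 on GRCm38. Capitals mark the poly(A) signal AATAAA or ATTAAA, read on the strand of the gene only.
Hipk2, chr6:38694390-38694419, minus strand: ggcagccactctgcaaacctcatcccacaa
Cyp2b10, chr7:25926595-25926624, plus strand: ttcaggtaaacagaatcacatagtgtgtga
Rras2, chr7:114046782-114046811, minus strand: tagaATTAAAgttgatctgttgtcaccaga
Abca6, chr11:110176820-110176849, minus strand: ataaaattcacaattattcatgtctcaaaa
Pabpn1, chr14:54898140-54898169, plus strand: gaagatgaccttgatggaaaaaaaatattt
Slc30a5, chr13:100802648-100802677, minus strand: ccATTAAATAAAttttttttatttttggta
Only Rras2 and Slc30a5 among these 6 show a signal in the 30 nt, and in Slc30a5 both hexamers are present and overlap. Abca6 has AATAAA slightly further upstream, within the last 40 nt, and Hipk2, Cyp2b10 and Pabpn1 have neither hexamer in their last 40 nt. Sytl5, Cmip, Acnat1 and Otud6b also belong to the 10 genes and are not shown. Their last 30 nt hold neither hexamer, and of these only Otud6b has AATAAA within the last 40 nt.

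Sequence at the clusters themselves was at hand only where they fell in the RefSeq promoter window of a neighbouring gene and 11 such clusters are used here. Of these 11 windows (the cluster and 50 nt on each side, cut to the promoter window, median 125 nt), 3 held GCATG, the DNA form of the core RBFOX motif, on the cluster's strand (27.3%, 9.75 to 56.6%). For comparison, 9.32% (9.01 to 9.64%) of the 32851 RefSeq promoter windows held GCATG in their first 125 nt, read on the strand of the promoter's gene. With 11 windows the interval includes that share. In 1 of them, 941 nt past the end of Cep85, the motif lay inside the cluster itself, which spanned 12 nt from chr4:134128911-134128922 on the minus strand and had a count of 15. The same cluster lay 128 nt before the start of Sh3bgrl3, the gene of the promoter window, and is counted in both sets. Below are the 30 nt that start 10 nt upstream of this cluster, from RefSeq on GRCm38.p6, with the motif in capitals.
Cep85, chr4:134128903-134128932, minus strand: gccggtccccaGCATGgggctgagggggaa

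Clusters past gene ends thinned out with distance. The nearest cluster lay 3 nt past the annotated end and the farthest 4988 nt, the median distance was 1558.5 nt (quartiles 620 and 2919.25 nt), and 37.9% (35.0 to 41.0%) lay within the first 1000 nt, against 28.7% (24.3 to 33.6%) of the clusters before gene starts. Since genes often follow each other closely, the sequence open to such clusters shrinks with distance, and densities were computed per megabase (Mb) of sequence that was free of annotated genes on both strands. Past gene ends there were 13.7 clusters per Mb (exact Poisson 95% interval 12.9 to 14.6), against 4.82 (4.33 to 5.34) before gene starts, a ratio of 2.84 (2.52 to 3.22). The sequence between genes outside both windows had 2.75 clusters per Mb. The 3′ UTRs themselves had 290.0 per Mb, which was 21.2 times (19.8 to 22.6) the density past gene ends.

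**Figure D1:**
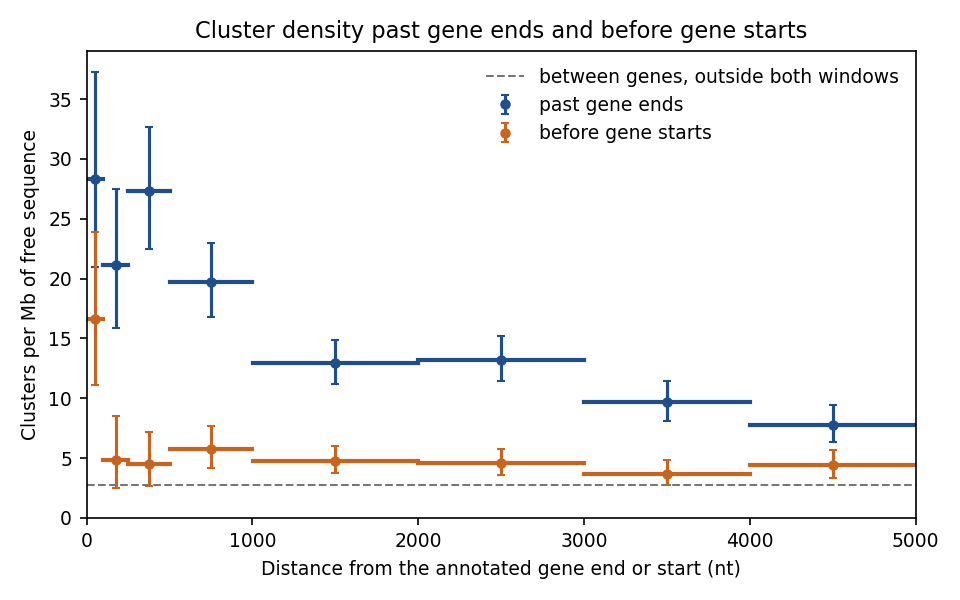
Clusters per Mb of gene-free sequence (y axis) against the distance in nt from the annotated gene end or start (x axis). Horizontal lines span the distance bins, points are bin densities and vertical bars are exact Poisson 95% intervals. Past gene ends the density lay between 19.7 and 28.3 per Mb in the first 1000 nt and was 7.78 per Mb at 4001 to 5000 nt, while before gene starts it was above 6 per Mb only in the first 100 nt.

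In the plot of density against distance, the decline past gene ends was gradual. The density was 28.3 per Mb (21 to 37.3) at 1 to 100 nt, 27.3 at 251 to 500 nt, 12.9 at 1001 to 2000 nt and 7.78 (6.34 to 9.45) at 4001 to 5000 nt. The first 1000 nt were 2.92 times (2.34 to 3.67) as dense as the last 1000 nt. Before gene starts the same ratio was 1.48 (1.07 to 2.07), with 16.6 clusters per Mb (11.1 to 23.9) in the first 100 nt and between 3.69 and 5.76 in every later bin. At 4001 to 5000 nt the density past ends was still above that before starts, 4.38 (3.35 to 5.63).

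The genes past whose ends clusters lay, called host genes, numbered 702, or 3.81% of the protein-coding genes with free sequence past their end. They carried clusters in their bodies and 3′ UTRs more often than other genes. A cluster inside the gene was present in 554 hosts (78.9%, 75.7 to 81.8%), against 41.7% of all protein-coding genes, and a 3′ UTR cluster in 305 hosts (43.4%, 39.8 to 47.1%), against 15.7% of all protein-coding genes. Of the 314 host genes of clusters before gene starts, 65 had a 3′ UTR cluster (20.7%, 16.6 to 25.5%), which was 22.7 percentage points fewer (Newcombe 95% interval 16.7 to 28.3). Gene expression was not measured in this list. When only genes with at least 1 cluster inside were counted, a 3′ UTR cluster was present in 55.1% (50.9 to 59.1%) of the hosts past ends, 36.9% (30.2 to 44.3%) of the hosts before starts and 37.6% (36.6 to 38.6%) of all such genes. The gap between the first and the last was 17.5 points (13.2 to 21.7). These hosts are also counted among all such genes, while the interval takes the groups as separate. The part of expression level in these gaps was not tested.

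The more clusters a gene had inside, the more often it also had one past its end, and far less so before its start. Among genes with no cluster inside, 1.36% (1.16 to 1.60%) had a cluster past their end, and 1.26% (1.06 to 1.48%) had one before their start. With 2 to 3 clusters inside these shares were 5.48% and 1.70%, and with at least 10 clusters inside they were 13.7% (12.1 to 15.4%) and 2.87% (2.19 to 3.77%). Within this last class the share past ends was 15.8% (13.8 to 18%) for genes with a 3′ UTR cluster and 9.18% (7.01 to 11.9%) for genes without one. Only 16 of the 702 hosts had clusters both past their end and before their own start.

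Densities by gene class gave the same picture per megabase. Past the ends of genes with a 3′ UTR cluster there were 45.9 clusters per Mb (42.0 to 50), past those with clusters inside but none in the 3′ UTR 19.4 (17.4 to 21.6), and past those with no cluster inside 3.42 (2.90 to 4.01). The first class was 2.36 times (2.05 to 2.71) as dense as the second past gene ends. Before gene starts these classes did not differ beyond counting error, with a ratio of 0.882 (0.658 to 1.18). The ratio of downstream to upstream density was 6.78 (5.32 to 8.73) for genes with a 3′ UTR cluster, 2.53 (2.07 to 3.12) for the second class and 1.06 (0.838 to 1.33) for genes with no cluster inside. The 148 hosts of the last class held 154 of the clusters, and the density past the ends of this class was the nearest of the 3 to the 2.75 per Mb between genes.

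**Figure D2:**
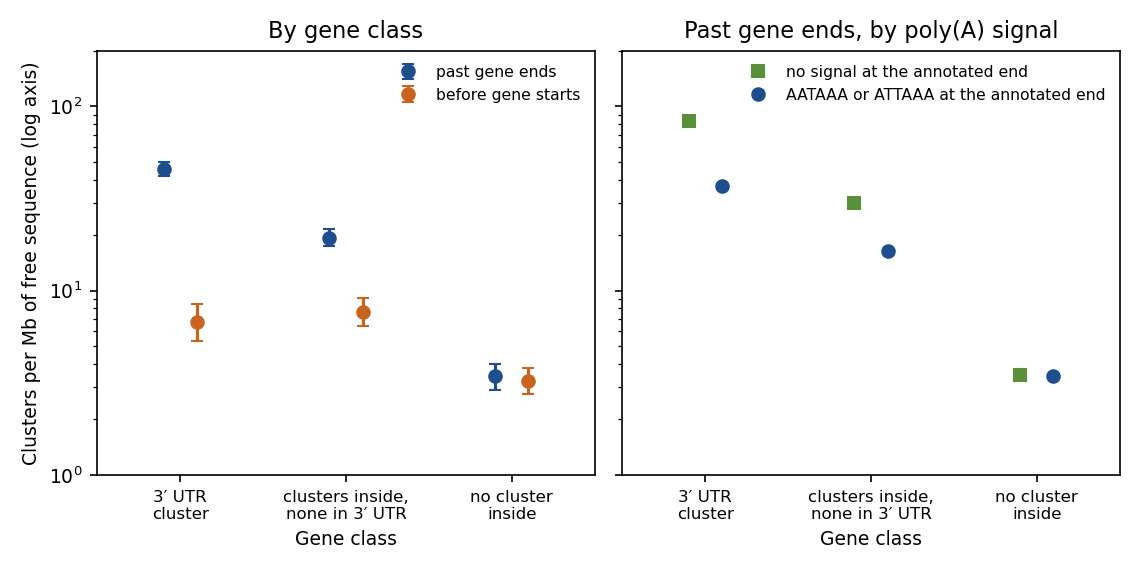
Clusters per Mb of gene-free sequence on a log axis for protein-coding genes with a 3′ UTR cluster, with clusters inside but none in the 3′ UTR, and with no cluster inside. Left, past gene ends and before gene starts with exact Poisson 95% intervals, where the downstream points fall from 45.9 to 3.42 per Mb and the upstream points stay between 3.24 and 7.67. Right, past gene ends only, for genes without and with AATAAA or ATTAAA in the last 40 nt of the annotated end (no intervals drawn), with 83.3 and 37.0 per Mb in the first class.

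The share of clusters whose host had a 3′ UTR cluster did not rise or fall steadily with distance. It was 48.0% (34.8 to 61.5%) at 1 to 100 nt, 56.2% (48.5 to 63.6%) at 501 to 1000 nt and 52.9% (43.3 to 62.3%) at 4001 to 5000 nt, and the intervals of all 8 distance bins overlapped. A host with several clusters counts several times in this share. Over all distances it was 50.9% (47.8 to 54.0%). Counted over hosts, a 3′ UTR cluster was present in 47.2% up to 2500 nt, 43.4% up to 5000 nt and 40.2% up to 10000 nt. Of the 305 hosts with a 3′ UTR cluster, 176 (57.7%, 52.1 to 63.1%) had one within 500 nt of the annotated end.

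Clusters past gene ends lay mostly on the strand of the gene. To read both strands over the same bases, stretches were kept where the opposite strand was neither past a gene end nor before a gene start. There, 815 clusters lay on the strand of the gene and 252 on the opposite strand, or 76.4% (73.7 to 78.8%) on the strand of the gene. In the matching stretches before gene starts the numbers were 320 and 345 (48.1%, 44.3 to 51.9%), 28.3 points lower (23.6 to 32.8). The share on the strand of the gene was 92.8% (85.8 to 96.5%) at 251 to 500 nt past the end and 67.9% (59.6 to 75.2%) at 4001 to 5000 nt.

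The same gene classes separated the strands. Past genes with a 3′ UTR cluster 89.6% (86.4 to 92.1%) of clusters lay on the strand of the gene, and past genes with clusters inside but none in the 3′ UTR 80.9% (76.5 to 84.7%). Past genes with no cluster inside there were 128 clusters on the strand of the gene and 138 on the other, or 48.1% (42.2 to 54.1%), which includes an even split. Wide clusters were more one-sided than narrow ones. Of those over 50 nt, 85.8% (81.2 to 89.4%) lay on the strand of the gene, against 64.9% (59.8 to 69.7%) of those of 5 nt or less. The 252 opposite-strand clusters had a median width of 5.5 nt, against 18 nt for the 815, and median counts of 15 and 16.

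**Figure D3:**
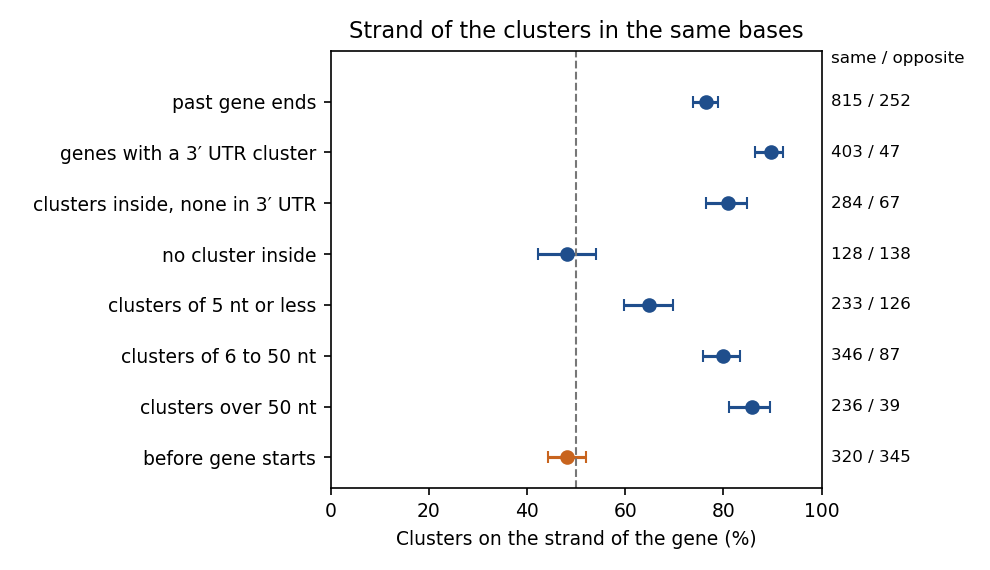
Percentage of clusters on the strand of the gene (x axis) in stretches where both strands could be compared, with Wilson 95% intervals and the numbers on the same and the opposite strand at the right. The dashed line marks an even split. Past gene ends the share was 76.4%, and it was 48.1% both past the ends of genes with no cluster inside and before gene starts.

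By width, clusters past gene ends were close to the list as a whole, and wider than the other clusters outside genes. They were close to 3′ UTR clusters in their median and narrow share, but more of them were wide. Their median width was 18 nt (quartiles 5 and 63 nt), against 18 nt (5 and 59 nt) over all clusters and 16 nt (5 and 47 nt) in 3′ UTRs. The median was 7 nt before gene starts and 5 nt at the other clusters outside genes. Clusters over 50 nt made up 29.5% past gene ends, 28.3% over all clusters and 23.3% in 3′ UTRs. Clusters of 5 nt or less made up 28.3% (25.6 to 31.1%) past gene ends, 26.7% over all clusters and 27.2% (26.3 to 28.1%) in 3′ UTRs, the last a difference of 1.08 points (-1.75 to 4.06). Before gene starts the share was 39.2% (34.3 to 44.3%), and at the other clusters outside genes 55.3% (54.2 to 56.4%). For the 256 clusters before a gene start that were not also past an end it was 45.3% (39.3 to 51.4%), with a median width of 6 nt. Past the ends of genes with no cluster inside it was 46.1%. In 12 cases the first bases of a cluster past the end still overlapped the gene.

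**Figure D4:**
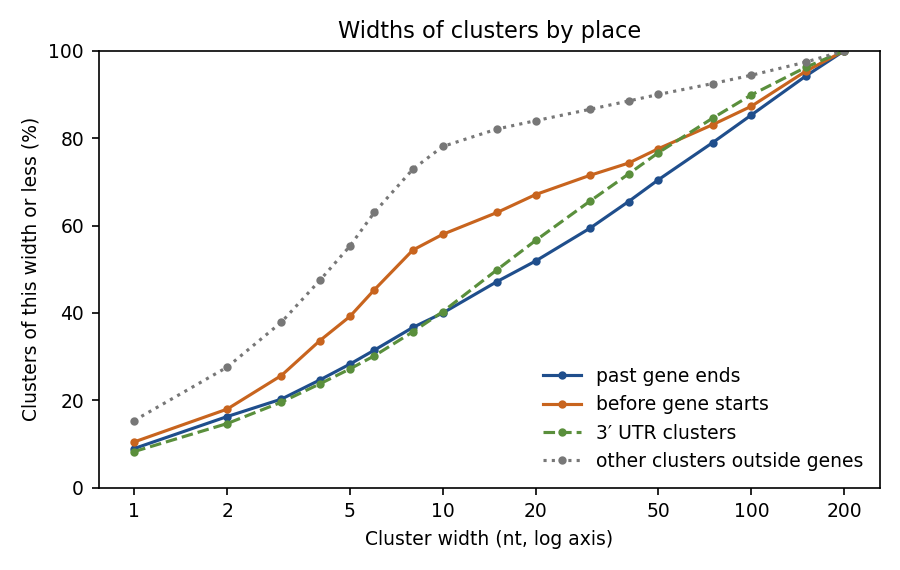
Percentage of clusters at or below a given width in nt (x axis, log) for clusters past gene ends, before gene starts, in 3′ UTRs and elsewhere outside genes. At 5 nt the curves past gene ends and in 3′ UTRs stand at 28.3 and 27.2%, those before starts and elsewhere at 39.2 and 55.3%.

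Counts were low. The 1012 clusters summed to 21684 counts, each taken as a cDNA start, or 0.761% of the 2850863 counts in the list. Their median was 16 (quartiles 12 and 23), against 20 in 3′ UTRs, 15 before gene starts and 17 over all clusters, and 104 clusters sat at the list's minimum of 10. Only 73 (7.21%) reached a count of 39, the lower limit of the top 10% of the whole list. The cluster with the highest count lay 3514 nt past the end of Cyp2b10, with a count of 349 over 98 nt. The next, with 276 counts over 2 nt, lay 1562 nt past Kcnn4, a calcium-activated potassium channel gene with no cluster inside. Hipk2 followed with 201 counts at 708 nt, then Rras2 with 190 at 1145 nt, Hipk2 with 171 at 3988 nt and Cyp2b10 with 157 at 277 nt. Prrg4 had 131 at 815 nt, inside the RefSeq record of another gene. Clcn6, which encodes a chloride-proton exchanger of late endosomes, had 109 at 243 nt, Hipk2 109 at 4929 nt and Endod1 105 at 180 nt. Thus 6 of the 10 highest counts belonged to 3 genes.

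The clusters closest to an annotated end lay 3 nt past Cyp2c69, 4 nt past Eif3a, 5 nt past Prkx, 5 nt past St3gal2 and 6 nt past Dhx37. Eif3a encodes a subunit of translation initiation factor eIF3, and St3gal2 a sialyltransferase. Their counts were 35, 10, 14, 18 and 13. Those of Cyp2c69, Eif3a, Prkx and Dhx37 overlapped the gene with their first bases. In RefSeq the clusters of Cyp2c69, Prkx, St3gal2 and Dhx37 lay inside the record of the same gene.

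A few genes held many clusters. Of the 702 hosts, 589 had 1 cluster past their end, 73 had 2 and 40 had 3 or more, while 6 genes had 10 or more and together held 138 clusters. The 4 genes with most, Hipk2, Cyp2b10, Rras2 and Abca6, held 117 clusters (11.6%) and 4502 counts (20.8%). Without them the share of clusters of 5 nt or less was 23.6% (20.9 to 26.5%), a difference from 3′ UTRs of -3.61 points (-6.42 to -0.585) where it had been positive, and the median width was 25 nt.

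Hipk2 encodes a homeodomain-interacting protein kinase. It had 43 clusters past its end, from 145 to 4988 nt, with 1591 counts in all, a median count of 20 and a median spacing of 67 nt. Of these 43, 29 were 5 nt wide or less. The gene also had 168 clusters inside, 25 of them in the 3′ UTR, the last of which lay 9 nt before the end. Clusters went on beyond the limit, with 18 more as far as 7744 nt. RefSeq places the end of Hipk2 6878 nt further downstream than GENCODE M21, and all 43 clusters lie inside the RefSeq record.

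Cyp2b10, a drug-metabolising cytochrome P450 that is induced through the receptor CAR, had 29 clusters from 15 to 4763 nt with 1268 counts. Of these, 21 were 5 nt wide or less. The counts were uneven, with a median of 22 and a maximum of 349. The gene had 71 clusters inside and 5 in its 3′ UTR, and 9 more lay past the limit as far as 8835 nt. Here RefSeq and GENCODE give the same end, so that all 29 lie past both annotations. Cyp2b10 belongs to a family of similar neighbouring genes, and as only unique alignments were kept, counts here and at Cyp2c69 are uncertain where copies are near-identical.

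Rras2, a small GTPase of the Ras family, had 25 clusters from 152 to 3286 nt with 968 counts. Neighbouring genes leave only 3411 nt of free sequence, and the clusters reached nearly to its edge. RefSeq and GENCODE again give the same end, the one shown above with ATTAAA. Abca6, a member of the ABC transporter family, had 20 clusters from 271 to 2818 nt with 675 counts and none in its 3′ UTR. Of these, 13 lie inside the RefSeq record, which ends 2182 nt further downstream, and the other 7 past it.

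Smaller sets lay past the other genes with most clusters. Sytl5, a synaptotagmin-like protein gene, had 11 clusters with 232 counts, 9 of them inside its RefSeq record, and 11 more beyond 5000 nt. Cmip had 10 with 340 counts between 14 and 1544 nt, and the peroxisomal acyltransferase gene Acnat1 8 with 164 counts. All clusters of Cmip and Acnat1 lie inside the RefSeq record of the gene. The deubiquitinase gene Otud6b had 7 with 162 counts from 342 to 3851 nt, past both annotated ends. Slc30a5, a zinc transporter gene, had 7 in a short stretch from 96 to 339 nt with counts between 10 and 28, although it had only 1 cluster inside, and its RefSeq end lies 3 nt from the GENCODE end. Pabpn1, the nuclear poly(A)-binding protein gene, had 7 from 45 to 724 nt with 320 counts, all inside the RefSeq record, which ends 758 nt further downstream. By summed counts Kcnn4 with 276, the adenylate cyclase gene Adcy9 with 188 and Prrg4 with 186 also ranked among the top 10. Of the 5 Adcy9 clusters, 4 lie inside its RefSeq record. The Prrg4 cluster with 131 counts lies inside the RefSeq record of another gene. No opposite-strand cluster lay in the stretches compared past any of the 10 genes with most clusters.

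**Figure D5:**
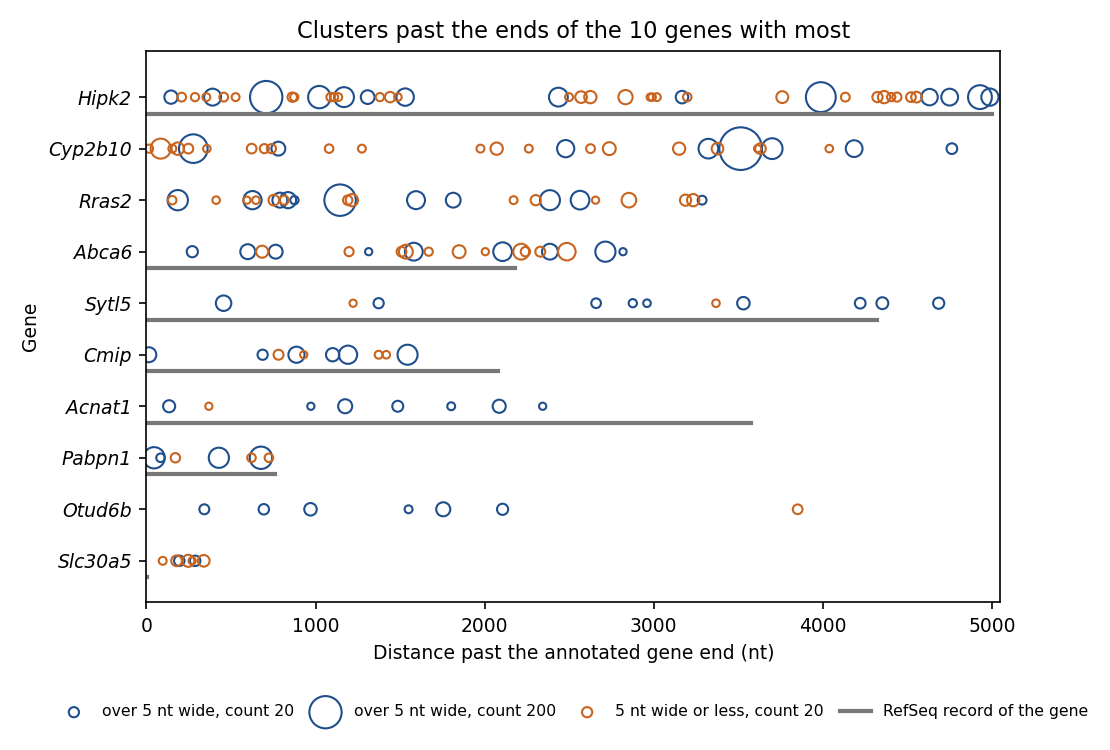
Clusters past the ends of the 10 genes with most, by distance from the annotated end in nt (x axis), 1 row per gene. Circle area is proportional to the count, orange circles are 5 nt wide or less, blue ones wider, and the grey line spans the RefSeq record of the same gene past the GENCODE end. Hipk2 with 43 clusters lies inside its RefSeq record throughout, while the 29 clusters of Cyp2b10 and the 25 of Rras2 have no such record beneath them.

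A second annotation of the same genome, RefSeq on GRCm38.p6, put a part of the clusters inside genes. Of the 1012, 203 (20.1%, 17.7 to 22.6%), at 94 genes, lay inside the RefSeq record of the same gene, 61 (6.03%) inside the record of another gene and 748 (73.9%, 71.1 to 76.5%) in no RefSeq gene. Before gene starts, 43 of 362 clusters (11.9%, 8.94 to 15.6%) lay inside the RefSeq record of the same gene. RefSeq was matched by symbol and chromosome for 686 hosts. Its end lay more than 100 nt past the GENCODE end in 18.1% (15.4 to 21.1%) of them and in 8.95% (8.37 to 9.56%) of matched genes with a cluster inside, a difference of 9.13 points (6.36 to 12.2). Matched hosts with a cluster inside are part of both groups, while the interval takes the groups as separate. In 71.1% of matched hosts both ends agree within 100 nt. The sequence that RefSeq adds to genes had 68.1 clusters per Mb (59.1 to 78.2), 5.81 times (4.95 to 6.79) the 11.7 per Mb (10.9 to 12.6) past the RefSeq end. When this added sequence was left out, 805 clusters remained, the ratio of density past ends to that before starts was 2.4 (2.11 to 2.72) and 73.0% (69.9 to 75.8%) lay on the strand of the gene.

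How often the annotated end of a host gene carried a poly(A) signal depended on the class of the gene. AATAAA or ATTAAA was found in the last 40 nt in 503 of 702 hosts (71.7%, 68.2 to 74.9%), and in 69.6% of all protein-coding genes. Among genes with a cluster inside it was found in 76.0% (75.1 to 76.9%), and the hosts were lower by a difference of -4.34 points (-7.89 to -1.01). Hosts with a cluster inside are part of both groups, while this interval takes the groups as separate. Hosts with a 3′ UTR cluster had a signal in 78.4% (73.4 to 82.6%), against 80.8% of the other genes of that class with free sequence past their end, a difference of -2.47 points (-7.64 to 2.06) that includes 0. Hosts with clusters inside but none in the 3′ UTR had one in 68.1% (62.1 to 73.6%), against 76.8%, a difference of -8.66 points (-14.8 to -3.03). Among genes with no cluster inside the shares were 64.2% and 65.3%. Hosts also differed by their RefSeq record. The 94 with clusters inside their own RefSeq record had a signal in 42.6% (33.0 to 52.6%), and the other 608 in 76.2% (72.6 to 79.4%). Of the 10 genes with most clusters, 4 had a signal, namely Rras2, Abca6, Otud6b and Slc30a5. A match says only that the letters are there.

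Counted per megabase, ends without a signal had more clusters past them in both classes of genes with clusters inside. Among genes with a 3′ UTR cluster there were 83.3 clusters per Mb past ends with no signal and 37.0 past ends with one, a ratio of 2.25 (1.87 to 2.70). Without the 4 genes with most clusters the ratio was 1.46 (1.16 to 1.82). The share of genes that were hosts differed less, with 11.8% (9.37 to 14.7%) of those without a signal and 10.3% (9.12 to 11.6%) of those with one. Among genes with clusters inside but none in the 3′ UTR the density ratio was 1.84 (1.46 to 2.30), and 2.02 (1.60 to 2.54) without these 4. In this class 7.23% (5.84 to 8.93%) of genes without a signal and 4.80% (4.14 to 5.55%) of those with one were hosts. Among genes with no cluster inside the density ratio was 1.02 (0.720 to 1.43). Before gene starts the ratios of the 3 classes were 0.829, 1.05 and 0.813, and each interval included 1.

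Groups of genes chosen for the liver and for RNA processing were hosts at differing rates. Shares are given over the genes of a group with free sequence past their end, as is the 3.81% of all genes. Of 40 splicing regulators 35 had such sequence and 8 were hosts (22.9%, 12.1 to 39.0%), with 9 clusters and 165 counts. These were Rbfox2 itself with 1 cluster 1429 nt past its end (12 counts over 30 nt), Snrnp70 of the U1 snRNP with 11 counts at 918 nt, and the SR proteins Srsf5 with 26 counts at 838 nt and Srsf6 with 29 and 12 counts at 407 and 712 nt. Tra2b had 16 counts at 2303 nt, Qk 23 at 4611 nt, Hnrnpa2b1 23 at 145 nt, inside its RefSeq record, and Hnrnpd 13 at 1720 nt. The 9 counts ran from 11 to 29, against a median of 16 over all clusters past gene ends. Of the 40 regulators, 39 had a cluster inside and 24 in the 3′ UTR, and the interval of their host share includes the 13.7% found for all genes with at least 10 clusters inside.

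Genes of secreted proteins and of lipid metabolism were hosts at rates whose wide intervals include that of all genes. The rates rest on 1 and 2 hosts, and their intervals also include the 13.7% found for all genes with at least 10 clusters inside. Of 40 plasma protein and abundant hepatocyte genes, 39 had a cluster inside and 21 in the 3′ UTR, and only Apoc3, an apolipoprotein gene, was a host (2.70% of 37 with free sequence, 0.479 to 13.8%), with 11 counts at 345 nt. Of 40 lipid and lipoprotein genes, 35 had a cluster inside and 2 were hosts (6.06% of 33, 1.68 to 19.6%). These were Insig2, a brake on sterol synthesis, with 22 counts at 2484 nt and 14 at 3257 nt, and Ppara. Ppara, a nuclear receptor of fatty acid oxidation, had 10 counts at 2927 nt, inside its RefSeq record. Of 24 factors of 3′ end processing only Pabpn1 was a host (5.56% of 18, 0.988 to 25.8%). None of the 67 replication-dependent histone genes was a host (0% of 62, up to 5.83%), and 4 had any cluster inside. The mRNAs of these histone genes end without a poly(A) tail. The intervals of all these groups except the splicing regulators include the background share.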

How the data were processed

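According to the labels and the study's methods, the authors trimmed adaptors with cutadapt (minimum length 18 nt), aligned the reads end to end to GRCm38 with STAR 2.4.2a, kept unique alignments, removed duplicates by position and random barcode, and grouped cDNA starts into clusters with Paraclu. CASAVA 1.8.4 is also listed. The deposited value per cluster is a whole-number count pooled over 3 libraries, neither normalised nor, as far as stated, corrected for input, and it is taken here as cDNA starts. Unique alignment leaves repeats out. The size-matched input was not used here, and depth per library is not known from the list.

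The midpoint of each cluster was placed against 55536 genes of GENCODE M21, 22028 of them protein-coding (the study used M20). A total of 28 clusters lay on sequences outside this annotation. Free sequence was counted base by base, without chromosome M (1 cluster past an end). 3′ UTRs came from protein-coding transcripts, without coding sequence. Shares have Wilson, differences Newcombe, densities exact Poisson and density ratios exact conditional 95% intervals. No test was run. The members, gene lists and comparisons were chosen with earlier results of these data known. Named are the 10 clusters with the highest counts, the 10 hosts with most clusters, the 10 with the highest summed counts, the 5 nearest clusters and every host in the lists. Cep85 and Sh3bgrl3 were named after the sequence of their shared cluster was seen. Placement was tested on simulated data. Python 3.11.15, numpy 2.4.6, pandas 2.3.3, scipy 1.17.1 and matplotlib 3.10.9 were used.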

Additional observations from a re-analysis of the deposited data

How the results depend on the processing

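The values were recomputed under 13 alternatives, except the narrow share (11) and the share of hosts with a poly(A) signal (2). Of these, leaving out the 4 genes with most clusters and leaving out sequence past gene ends inside the RefSeq record were chosen after seeing the data. The density ratio stayed above 1 and the share on the strand of the gene above 50% under all 13. At or above the median count of 17 there were 465 clusters, with a density ratio of 3.24, 39.6% of hosts with a 3′ UTR cluster, 23.7% narrow clusters (5 nt or less) and a median count of 24. In the top 10% of counts there were 73 clusters, 22.9% of 35 hosts with a 3′ UTR cluster, 12.3% narrow clusters and a median count of 59. The filters were applied to 3′ UTR clusters too, and the medians follow from them. The density ratio was 2.30 up to 10000 nt, 3.61 without clusters also before a gene start, 3.36 without narrow clusters, 2.52 without the 4 genes and 2.4 without RefSeq sequence. The share on the strand of the gene was 72.5% up to 10000 nt, 82.2% without narrow clusters, 73.7% after merging clusters within 200 nt and 73.0% without RefSeq sequence. Up to 2500 nt, 47.2% of hosts had a 3′ UTR cluster. The narrow share was 23.6% without the 4 genes, which turned its difference from 3′ UTRs from 1.08 to -3.61 points, and the share of hosts with a poly(A) signal 75.7% without RefSeq sequence. All other recomputed values stayed within the interval of the main value (the quartiles for the median count), or within 1.5 times for the number of clusters.

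No paired analysis was possible because the libraries were pooled into 1 list, and for the same reason none was left out. The search for motifs around all clusters was not run, as no genome sequence was used here. A cluster needs at least 10 counts, so weaker contacts past gene ends are not visible. Expression, input and the 3′ ends used in these cells were not measured here, and their part in the results was not tested.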

Other observations

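Beyond 5000 nt the density past gene ends was 5.84 clusters per Mb (5.23 to 6.49) at 5001 to 10000 nt, against 4.02 (3.55 to 4.55) before gene starts. At 10001 to 15000 nt the values were 4.16 (3.62 to 4.76) and 3.61 (3.13 to 4.14), and at 15001 to 20000 nt 4.64 (4.04 to 5.31) and 4.80 (4.21 to 5.44), so that the intervals overlapped from 10001 nt on.

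Within the same distance of the ends of non-coding genes and pseudogenes, and not past a protein-coding end, lay 392 clusters with a median width of 7 nt, of which 41.8% were 5 nt wide or less. Processed pseudogenes held 124 of them and lincRNA genes 110. The highest counts were 1396 at 38 nt past the predicted miRNA gene Gm24187 and 664 at 1109 nt past the lincRNA gene Gm10710, both chosen after their values were seen.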
